A study of Mus musculus with 6 samples.

Results

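Hedgehog signalling was described through 9 genes, the ligands *Dhh*, *Ihh* and *Shh*, the membrane proteins *Ptch1*, *Smo* and *Hhip*, and the transcription factors *Gli1*, *Gli2* and *Gli3*. They were chosen from the pathway after *Dhh* had been seen to be higher in the Npr1+/- aorta, so the difference in *Dhh* is given as a description with no test, and the question put to the data was whether the targets *Ptch1*, *Hhip* and *Gli1* were higher with it. The gene table listed all 9 among 18191 genes, and 8 of the 9, without *Shh*, were among the 13938 genes with enough reads to be tested. RNA of whole aortas of male mice was sequenced on a BGISEQ-500 instrument, with 3 wild type (WT) libraries and 3 libraries from mice that carried 1 disrupted copy of *Npr1*, made with CRISPR-Cas9. *Npr1* encodes the receptor of atrial and B-type natriuretic peptides, which makes cyclic GMP. The labels name no cell type to which the disruption was limited, and give neither age nor strain.

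Hedgehog ligands are secreted proteins that bind the receptor Ptch1, and bound Ptch1 no longer holds back Smo, a membrane protein that acts in the primary cilium. Active Smo keeps the Gli factors from being cut into repressors, and the genes they then induce include *Ptch1*, *Hhip* and *Gli1* themselves, which is why these are used as a readout of the pathway. *Dhh* is known from Schwann cells of nerves and from endothelium, and *Gli1* marks cells of the outer layer, the adventitia, of arteries.

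Total counts ran from 13510970 to 16664343 per library, and 3 counts, taken as the limit of detection, correspond to 0.180 to 0.222 CPM (counts scaled to library size), for counting error only. *Npr1* (chr3:90450591-90465866, minus strand, build mm10) was measured at 112.43, 153.33 and 151.51 FPKM (fragments scaled to transcript length and library size) in WT 1, 2 and 3, and at 70.35, 109.92 and 132.95 FPKM in Npr1+/- 1, 2 and 3. The groups overlapped, the Npr1+/- mean being 75.1% of the WT mean in CPM, with a log2 fold change of -0.41 (SE 0.27) and an exact two-sided permutation p of 0.2, where 0.1 is the smallest p that 3 against 3 allows. Against the WT library of the same number *Npr1* was lower in 3 of 3 pairs, at 65.2%, 73.9% and 83.2%, and the fit that blocks on the number gave -0.44 on the log2 scale (SE 0.15; edgeR unadjusted p 0.0221, adjusted p 0.311). That blocked fit gave 12.4% of all 13938 genes an unadjusted p under 0.05. The library Npr1+/- 1 stood apart. It held *Dbh*, the enzyme that makes noradrenaline in sympathetic neurons, at 132 CPM against at most 0.569 CPM in the others, and had the lowest sum of 10 smooth muscle markers, 13688 CPM against 22171 to 40424 CPM elsewhere. The fitted values of the members and the medians of gene lists are therefore also given without it.

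*Dhh*, Desert hedgehog (gene 13363, chr15:98891152-98898540, minus strand), was the one ligand that separated the genotypes. It was measured at 1.34, 1.40 and 2.0 FPKM in WT 1, 2 and 3 and at 3.74, 4.37 and 3.63 FPKM in Npr1+/- 1, 2 and 3, from 71, 86 and 125 counts and from 208, 256 and 215 counts. Each Npr1+/- library was above each WT library, and the means were 6.07 ± 1.43 CPM in WT and 14.9 ± 1.27 CPM in Npr1+/- (SD, n = 3), a 2.45-fold difference, or 1.29 on the log2 scale (SE 0.22). With Npr1+/- 1 left out the log2 fold change was 1.28 (SE 0.24), and with both libraries numbered 1 left out it was 1.20 (SE 0.23). Against the WT library of the same number *Dhh* was 286%, 305% and 177%. Across all 13938 genes, 7.48% had groups without overlap, and *Dhh* was the 1 member of the 8 tested that did.

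*Dhh* shares 3389 bases of its gene (chr15:98891152-98894540) with *Rhebl1* on the same strand, a small GTPase gene, so reads there could be split between them. *Rhebl1* was low, between 1.85 and 3.65 CPM over the 6 libraries, with a log2 fold change of -0.34 (SE 0.32). The other genes within 25 kb were *Kmt2d*, a histone methyltransferase gene, at a log2 fold change of 0.00 (SE 0.21), and *Lmbr1l* at 0.03 (SE 0.19).

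*Ihh*, Indian hedgehog (gene 16147, chr1:74945315-74951672, minus strand), is the ligand of growing cartilage and gut. It was measured at 2.15, 3.36 and 5.28 FPKM in WT 1, 2 and 3 and at 1.88, 3.84 and 4.08 FPKM in Npr1+/- 1, 2 and 3. The groups overlapped across almost their whole range, and the log2 fold change was -0.15 (SE 0.42). The 95% interval ran from -1.16 to 0.85, so changes of either sign within it were not excluded. The log2 fold change was 0.10 without Npr1+/- 1 and 0.26 without WT 3. *Shh*, Sonic hedgehog, the ligand of the embryonic neural tube and limb (gene 20423, chr5:28456815-28467256, minus strand), had 0 counts in 5 libraries and 3 counts, 0.09 FPKM, in Npr1+/- 2, which is at the limit of detection, so no fold was computed. *Dhh* made up 38.4%, 29.4% and 27.5% of the summed FPKM of the 3 ligands in WT 1, 2 and 3 and 66.5%, 52.7% and 47.1% in Npr1+/- 1, 2 and 3. The summed ligand level was 3.49, 4.76 and 7.28 FPKM in WT and 5.62, 8.30 and 7.71 FPKM in Npr1+/-, and these ranges overlapped.

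**Figure D1:**
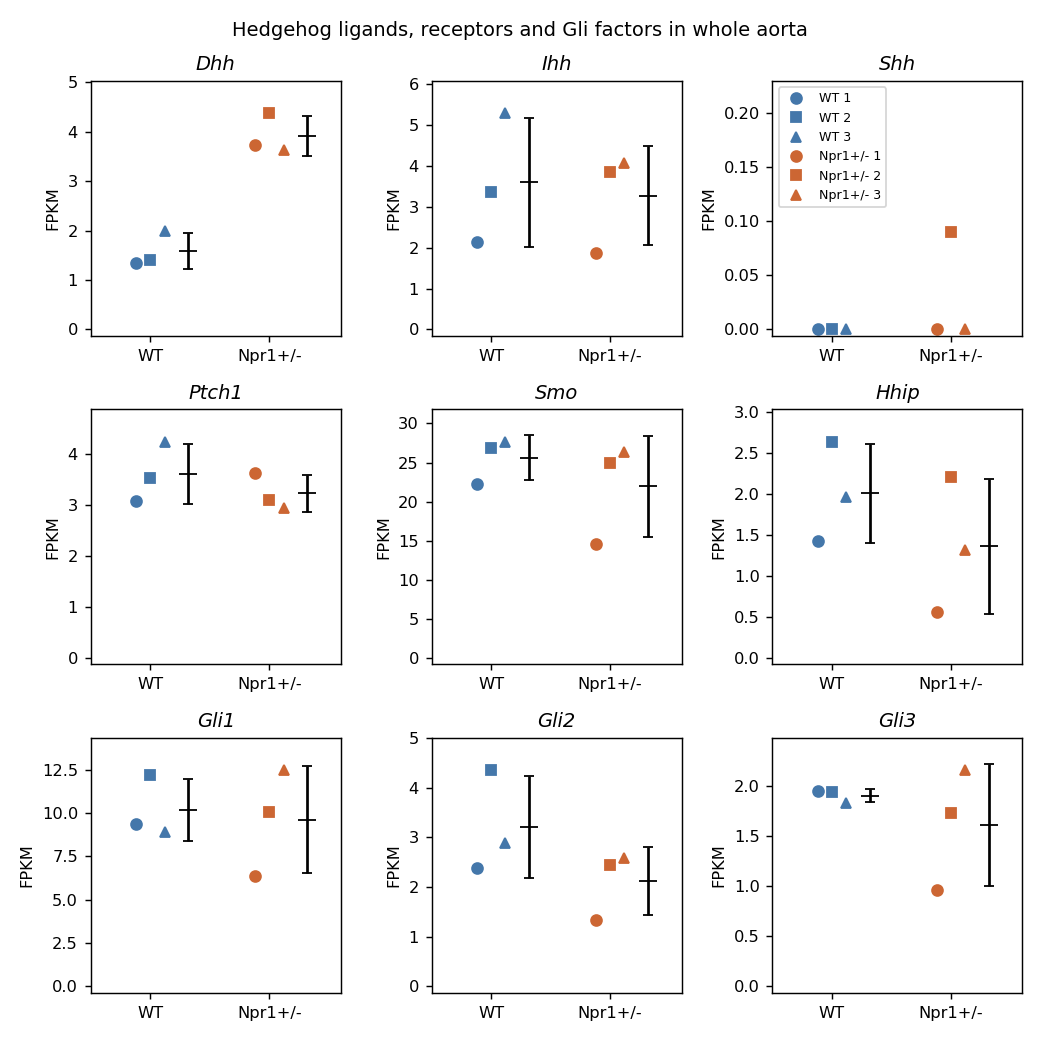
FPKM of each of the 9 Hedgehog genes (vertical axis, own scale per panel) in the 3 WT and 3 Npr1+/- libraries, with points as single libraries and the bar as mean and SD of 3 (none is drawn for *Shh*, which had reads in 1 library). Only in the *Dhh* panel do the groups not overlap, with WT at 1.34 to 2.0 FPKM and Npr1+/- at 3.63 to 4.37 FPKM.

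The sequence before the start of *Dhh* is shown with those of *Hhip*, the target with the lowest fitted value, and *Gli2*, whose window alone among the members held a match to the core of the Gli binding site. Each is the 250 bases upstream of the RefSeq start on build GRCm38.p6, written 5′ to 3′ along the gene's minus strand (*Dhh* chr15:98898541-98898790, *Hhip* chr8:80058009-80058258, *Gli2* chr1:119053620-119053869). Capitals mark the GC box GGGCGG, bound by factors of the Sp1 family, and the Gli core ACCACCC, both searched on either strand, the second of which is contained in the full site GACCACCCA.
Dhh: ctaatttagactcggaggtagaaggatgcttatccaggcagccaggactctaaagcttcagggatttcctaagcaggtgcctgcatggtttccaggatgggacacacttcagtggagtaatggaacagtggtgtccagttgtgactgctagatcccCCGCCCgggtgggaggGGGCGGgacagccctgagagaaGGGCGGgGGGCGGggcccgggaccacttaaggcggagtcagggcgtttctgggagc
Hhip: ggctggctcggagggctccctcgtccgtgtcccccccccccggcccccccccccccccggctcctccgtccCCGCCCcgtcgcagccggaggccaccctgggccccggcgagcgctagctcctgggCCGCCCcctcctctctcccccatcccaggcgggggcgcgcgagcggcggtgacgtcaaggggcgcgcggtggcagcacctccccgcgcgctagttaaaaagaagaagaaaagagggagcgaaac
Gli2: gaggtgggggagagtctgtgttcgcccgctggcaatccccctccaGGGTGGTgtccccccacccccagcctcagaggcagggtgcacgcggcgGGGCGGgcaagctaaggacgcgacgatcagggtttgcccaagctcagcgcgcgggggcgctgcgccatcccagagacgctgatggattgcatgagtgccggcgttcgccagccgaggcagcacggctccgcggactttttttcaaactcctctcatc

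RefSeq windows were found for 7 of the 9 members, without *Shh* and *Gli1*. No window of the 7 held the full Gli site GACCACCCA, which was in 0.225% of all 32851 windows of this length, and the core was in 1 of the 7, against 3.92% of all windows. The windows of *Ptch1* (chr13:63565736-63565985) and *Gli3* (chr13:15463473-15463722) lay inside the gene positions given here, which are from GENCODE. For these genes the sequence before the GENCODE start was not searched. The *Dhh* window held 4 GC boxes, and 4.09% of all windows held 4 or more, while 2 were found in those of *Ihh*, *Hhip* and *Gli3*, 1 in *Gli2* and *Ptch1*, and 0 in *Smo*. At least 1 box was in 32.7% of all windows. The G and C content was 59.6% for *Dhh*, 76.0% for *Hhip* and 67.2% for *Gli2*, above the 52.4% median of all windows. These are descriptions of letters in a window, and no binding was measured.

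Where *Dhh* was higher, no target had a higher Npr1+/- mean, and each had overlapping groups. *Ptch1*, the receptor (gene 19206, chr13:63508328-63573598, minus strand), was measured at 3.07, 3.52 and 4.23 FPKM in WT 1, 2 and 3 and at 3.62, 3.10 and 2.94 FPKM in Npr1+/- 1, 2 and 3, so that Npr1+/- 3 was the lowest and WT 3 the highest of the 6. Its log2 fold change was -0.19 (SE 0.19; 95% interval -0.65 to 0.27), a fold of 0.874 with an interval from 0.636 to 1.20, and without Npr1+/- 1 it was -0.32. A fit without both libraries numbered 1, added after the data were seen, gave *Ptch1* -0.42 (SE 0.17; 95% interval -0.82 to -0.029). The edgeR unadjusted p was 0.0388 and the adjusted p 0.400 there. In that fit the intervals of *Hhip* (-1.23 to 0.33) and *Gli1* (-0.31 to 0.47) included 0.

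*Hhip*, a membrane protein that binds Hedgehog ligands and limits them (gene 15245, chr8:79965851-80058006, minus strand), was measured at 1.42, 2.63 and 1.96 FPKM in WT and at 0.56, 2.20 and 1.32 FPKM in Npr1+/-. The lowest value was that of Npr1+/- 1, and WT 1 was also the lowest of its group. The log2 fold change was -0.56 (SE 0.50; 95% interval -1.76 to 0.64), or a fold of 0.680 (interval 0.296 to 1.56), and its size depended on single libraries. It was -0.22 without Npr1+/- 1, -0.27 without WT 2 and -1.20 without Npr1+/- 2, where the 95% interval ran from -2.23 to -0.18 (edgeR unadjusted p 0.0290, adjusted p 0.959; adjusted p from 0.235 to 1.00 over all alternatives).

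*Gli1*, the Gli factor that is itself a target (gene 14632, chr10:127329882-127341974, minus strand), was measured at 9.39, 12.23 and 8.93 FPKM in WT and at 6.35, 10.08 and 12.47 FPKM in Npr1+/-. Both the lowest and the highest library were Npr1+/-. The log2 fold change was -0.07 (SE 0.24; 95% interval -0.66 to 0.51), a fold of 0.95 with an interval from 0.635 to 1.42, and it turned to 0.12 without Npr1+/- 1 and to 0.061 without WT 2. *Gli1* overlaps *Arhgap9* by 62 bases on the opposite strand, and how the counting treated strand is not given in the sources used here, but *Arhgap9* was low, from 1.61 to 3.21 CPM.

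In edgeR's quasi-likelihood test, with p adjusted by the Benjamini-Hochberg method, 0 of 13938 genes (0%) passed both an adjusted p of 0.05 and a log2 fold change of 0.5 in size, and the adjusted p of *Ptch1*, *Hhip* and *Gli1* was 0.999 each. At an unadjusted p under 0.05 there were 412 genes (2.96%), of which 262 were higher (1.88%) and 150 lower (1.08%), and none of the 7 members other than *Dhh* was among them. DESeq2 called 15 of 18033 genes (0.0832%), and none of those 7 members was among them. Per unit of *Dhh*, *Ptch1* stood at 2.29, 2.51 and 2.12 (ratio of FPKM) in WT and at 0.968, 0.709 and 0.810 in Npr1+/-, and *Gli1* at 7.01, 8.74 and 4.47 against 1.70, 2.31 and 3.44, ratios that carry the *Dhh* difference in their denominator.

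**Figure D2:**
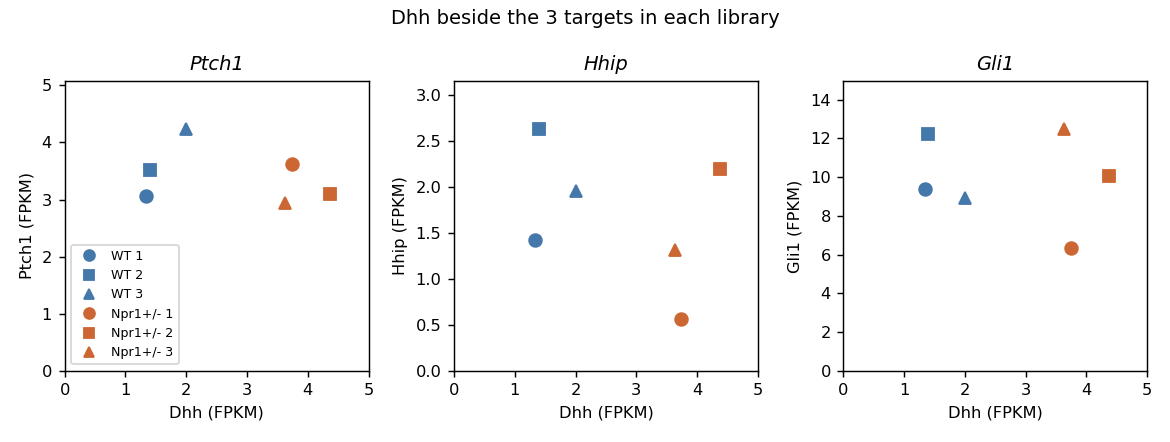
Level of *Ptch1*, *Hhip* and *Gli1* (vertical axes, FPKM) against that of *Dhh* (horizontal axis, FPKM) in the 6 libraries, with colour for genotype and shape for number. *Dhh* lies at 1.34 to 2.0 FPKM in WT and 3.63 to 4.37 FPKM in Npr1+/-, while each target covers overlapping ranges in the genotypes.

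*Smo*, the signal transducer (gene 319757, chr6:29735503-29761365, plus strand), was the most abundant member. It was measured at 22.31, 26.90 and 27.64 FPKM in WT and at 14.58, 24.95 and 26.30 FPKM in Npr1+/-. One library, Npr1+/- 1, lay below all others, and the log2 fold change of -0.23 (SE 0.23; 95% interval -0.77 to 0.31) was -0.04 without it.

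The other Gli factors pass on most of the signal, *Gli2* mainly as activator and *Gli3* mainly as repressor. *Gli2* (gene 14633, chr1:118834132-119053619, minus strand) was measured at 2.38, 4.35 and 2.89 FPKM in WT and at 1.33, 2.45 and 2.58 FPKM in Npr1+/-. The groups overlapped by WT 1 alone, and the log2 fold change of -0.58 (SE 0.31; 95% interval -1.32 to 0.16) was the lowest of the members, with an unadjusted p of 0.105 and an adjusted p of 0.999 in edgeR; without Npr1+/- 1 it was -0.36. *Gli3* (gene 14634, chr13:15463235-15730026, plus strand) was measured at 1.95, 1.94 and 1.83 FPKM in WT and at 0.96, 1.73 and 2.16 FPKM in Npr1+/-, with a log2 fold change of -0.21 (SE 0.25; 95% interval -0.82 to 0.40), and -0.0057 without Npr1+/- 1. The WT libraries lay close together, and the Npr1+/- libraries lay on both sides of them.

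Of the 8 tested members, 7 had a negative fitted log2 fold change and *Dhh* a positive one, with a median of -0.20, while over all 13938 genes 48.4% were negative and the median was 0.01. The count of negative members depended on Npr1+/- 1. Without that library *Ihh* (0.10) and *Gli1* (0.12) were positive, and *Smo* (-0.04) and *Gli3* (-0.0057) lay near 0. *Ptch1* (-0.32), *Hhip* (-0.22) and *Gli2* (-0.36) stayed negative. The libraries numbered 1 deviated from their group means together (r 0.64) and apart from the rest. Numbers 2 and 3 were not specific pairs, with r 0.39 for WT 2 with Npr1+/- 2 and 0.24 for WT 3 with Npr1+/- 3. Across them r was 0.44 for WT 3 with Npr1+/- 2 and 0.37 for WT 2 with Npr1+/- 3. With the number as a block *Hhip* was at -0.67 (SE 0.19, edgeR unadjusted p 0.00935, adjusted p 0.235) and *Gli2* at -0.58 (SE 0.16, unadjusted p 0.00765, adjusted p 0.217). That fit also called 0 genes and gave 1735 genes (12.4%) an unadjusted p under 0.05. Against the WT library of the same number *Hhip* was 48.5%, 85.9% and 55.9% and *Gli2* 59.2%, 58.3% and 85.2%, so both were lower in 3 of 3 pairs. *Ptch1* was 121%, 89.9% and 62.8% and *Gli1* 70.6%, 85.2% and 132%, which is no common direction.

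**Figure D3:**
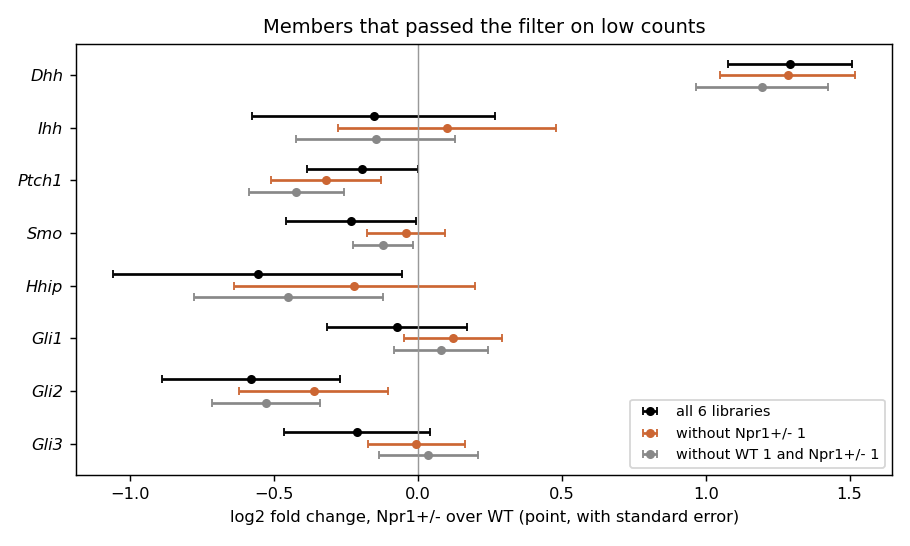
Log2 fold change (Npr1+/- over WT, horizontal axis) of the 8 tested Hedgehog members in the fit of all 6 libraries, without Npr1+/- 1, and without both libraries numbered 1, with points as estimates and bars as standard errors. *Dhh* lies between 1.20 and 1.29 in the 3 fits, and *Ihh*, *Gli1* and *Gli3* have estimates on both sides of 0.

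In the WT aorta the levels per length ranked *Smo* (25.6 ± 2.89 FPKM) above *Gli1* (10.2 ± 1.79 FPKM), and *Gli1* above *Ptch1* (3.61 ± 0.585 FPKM; SD, n = 3), and these neighbours did not overlap. From *Ptch1* down, *Ihh* (3.60 ± 1.58 FPKM), *Gli2* (3.21 ± 1.02 FPKM), *Hhip* (2.0 ± 0.606 FPKM), *Gli3* (1.91 ± 0.0666 FPKM) and *Dhh* (1.58 ± 0.365 FPKM) each overlapped the next, so their order is not resolved. *Smo* exceeded 83.0% of the listed genes and *Dhh* 37.2%, the median gene lying at 4.67 FPKM.

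Other genes of the pathway, taken from 4 lists by role, were measured in the same fit, in which no gene of any list was called by edgeR or by DESeq2. Of 10 tested genes for release and binding of the ligand, 9 had a negative log2 fold change, with a median of -0.33, and 2 had an unadjusted p under 0.05 (against 1.08% of all genes in that direction). Without Npr1+/- 1 the median was -0.20. *Cdon*, a coreceptor that binds Hedgehog ligands beside Ptch1, was at 35.6, 63.2 and 57.0 CPM in WT and at 22.7, 30.9 and 28.4 CPM in Npr1+/-, without overlap, at a log2 fold change of -0.93 (SE 0.24; unadjusted p 0.00680, adjusted p 0.999). It was 63.7%, 48.8% and 49.7% of the WT library of its number, and without Npr1+/- 1 the log2 fold change was -0.82. *Disp1*, which releases lipid-bearing ligand from the cell, was at 15.9, 16.5 and 15.8 CPM in WT and at 12.7, 13.8 and 10.6 CPM in Npr1+/-, also without overlap. Its log2 fold change was -0.38 (SE 0.16; edgeR unadjusted p 0.0479, adjusted p 0.999), and -0.41 without Npr1+/- 1. These were the 2 genes of the 10 without overlap, against 7.48% of all 13938 genes.

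The 17 tested genes that control Gli downstream of Smo had a median of -0.10 with 13 negative, and the 2 with the smallest p were *Evc* (-0.38, unadjusted p 0.218) and *Evc2* (-0.44, unadjusted p 0.236), which act with Smo at the base of the cilium. The 12 genes of the primary cilium had a median of -0.10 with 9 negative, led by *Arl13b* (-0.24, unadjusted p 0.360) and *Dync2h1* (-0.30, unadjusted p 0.420), a small GTPase and a motor of transport in the cilium. No gene of either list passed an unadjusted p of 0.05 in this fit, while with the replicate block *Evc* and *Evc2* had unadjusted p of 0.0306 and 0.0186 (edgeR adjusted p 0.341 and 0.292). The block gave 12.4% of all 13938 genes an unadjusted p under 0.05. Without Npr1+/- 1 the medians were -0.091 and -0.070, and the 4 genes named were at -0.13 (*Evc*), -0.15 (*Evc2*), -0.065 (*Arl13b*) and -0.038 (*Dync2h1*).

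Among 12 other genes reported to respond to Hedgehog signalling, 9 were negative, with a median of -0.15, which turned to 0.063 without Npr1+/- 1. *Foxf1*, a forkhead factor of mesenchyme, was at 19.2, 30.5 and 31.5 CPM in WT and at 9.19, 15.2 and 17.7 CPM in Npr1+/-, with no overlap and a log2 fold change of -0.95 (SE 0.30; unadjusted p 0.0168, adjusted p 0.999). Its relative *Foxf2* was lower still in level, at 1.17, 1.91 and 1.54 CPM in WT and 0.214, 0.949 and 0.445 CPM in Npr1+/-, without overlap. The Npr1+/- libraries held 3, 15 and 7 counts of it, and 3 counts is the limit of detection. The log2 fold change of *Foxf2* was -1.50 (SE 0.55; edgeR unadjusted p 0.0303, adjusted p 0.999), a fold that rests on few reads. *Ccnd1*, cyclin D1 of the cell cycle, was the one gene higher at an unadjusted p under 0.05. It was at 30.1, 29.2 and 25.4 CPM in WT and 39.1, 36.4 and 35.1 CPM in Npr1+/-, without overlap. Its log2 fold change was 0.38 (SE 0.12; edgeR unadjusted p 0.0176, adjusted p 0.999). Of the 12 genes, 2 lower and 1 higher had groups without overlap, against 7.48% of all 13938 genes in either direction. Without Npr1+/- 1 the log2 fold changes were -0.73 for *Foxf1*, -1.15 for *Foxf2* and 0.32 for *Ccnd1*. With the replicate block the edgeR unadjusted p of *Cdon* and *Foxf1* was 0.000130 and 0.000111, and the adjusted p 0.0743 each. For *Ccnd1* the blocked fit gave an unadjusted p of 0.00950 and an adjusted p of 0.237. That fit gave 12.4% of all genes an unadjusted p under 0.05, and its smallest adjusted p over all genes was 0.0664.

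**Figure D4:**
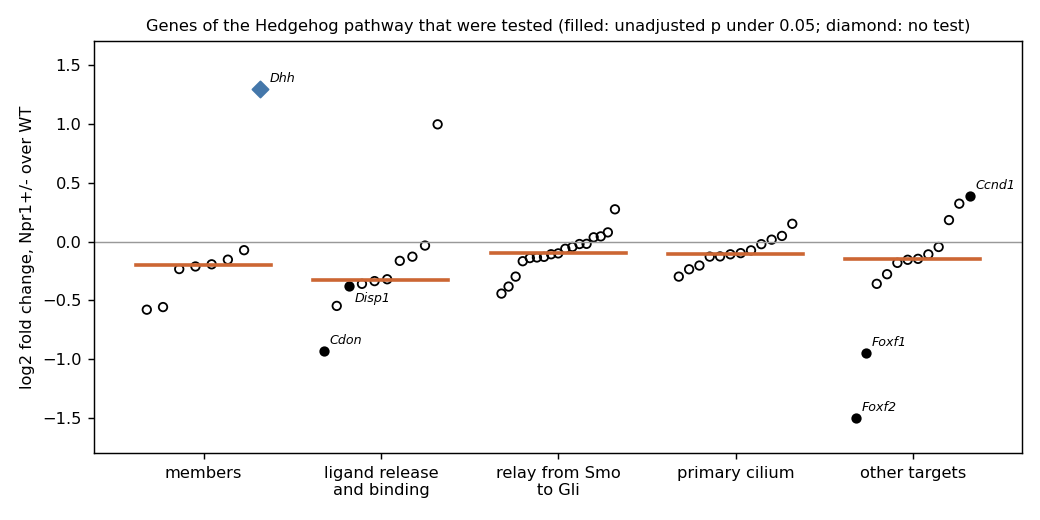
Log2 fold change (Npr1+/- over WT, vertical axis) of each tested gene of the Hedgehog members and of 4 lists of other pathway genes, with a bar at each list's median, filled points for an unadjusted edgeR p under 0.05 and a diamond for *Dhh*, which has no test. *Cdon*, *Disp1*, *Foxf1* and *Foxf2* lie below 0 and *Ccnd1* above it among the filled points.

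*Dhh* is made by endothelium and by Schwann cells, and markers of both cell types were measured beside it. In whole tissue, fewer cells of a type and less RNA per cell cannot be told apart. Of 12 endothelial markers 11 had a positive log2 fold change (all but *Erg*, at -0.32), with a median of 0.61, and 5 had groups without overlap. Over all 13938 genes 7186 were positive and 7.48% had groups without overlap. These markers were not tested as a set. The median of the endothelial markers was 0.27 without Npr1+/- 1 and 0.40 without WT 2. *Pecam1*, an adhesion protein of endothelium, was at 259, 216 and 399 CPM in WT and at 475, 453 and 412 CPM in Npr1+/-, and *Vwf*, von Willebrand factor, was at 125, 86.9 and 159 CPM against 321, 181 and 191 CPM. The summed endothelial markers were 943, 640 and 1039 CPM in WT and 1716, 1231 and 1119 CPM in Npr1+/-. Per 1000 counts of these markers *Dhh* had 5.49, 8.29 and 7.43 counts in WT and 8.64, 13.2 and 12.2 in Npr1+/-, a ratio of means of 1.60, and per 100 CPM of *Pecam1* it was 2.0, 2.45 and 1.93 CPM against 3.12, 3.58 and 3.31 CPM, a ratio of 1.57. The part of the endothelial markers in the *Dhh* difference was not tested.

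Of 12 tested Schwann cell markers 10 were positive, with a median of 1.20 (-0.0028 without Npr1+/- 1), and the sums were 125, 85.9 and 84.0 CPM in WT 1, 2 and 3 and 344, 91.6 and 114 CPM in Npr1+/- 1, 2 and 3. *Mbp*, a myelin protein, was at 26.2, 14.9 and 14.5 CPM in WT and at 106, 22.8 and 22.6 CPM in Npr1+/-, and *S100b*, a calcium-binding protein, at 38.9, 9.19 and 15.2 CPM against 31.1, 16.8 and 13.54 CPM. The sum was high in Npr1+/- 1 alone, and in Npr1+/- 2 and 3 it lay within the WT range, while *Dhh* was at 16.2 and 13.7 CPM there, above its highest WT value of 7.72 CPM. Neuronal markers stood out in the same library, at a sum of 559 CPM against 78.0 to 98.4 CPM in the other 5; *Uchl1* was there at 115 CPM and between 70.7 and 91.2 CPM elsewhere.

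*Ihh*, *Smo*, *Hhip*, *Gli1*, *Gli2* and *Gli3* all had their lowest value in Npr1+/- 1, where the muscle marker sum was also lowest. The 10 smooth muscle markers were all negative, with a median of -0.23 that turned to 0.052 without Npr1+/- 1, and *Acta2* and *Myh11*, the contractile actin and myosin, stood at 5833 and 2732 CPM there and at 8978 and 4683 CPM or more in every other library. The 10 fibroblast markers had a median of -0.16 with 7 negative (-0.17 without Npr1+/- 1), led in level by *Col1a1* and *Col3a1*, at 638 and 686 CPM in Npr1+/- 1 and at least 1136 and 1179 CPM elsewhere. Per 1000 fibroblast marker counts *Gli1* had 6.40, 6.71 and 7.78 counts in WT and 7.39, 7.82 and 9.48 in Npr1+/-, and these ranges overlapped. The part of these markers in the values of Npr1+/- 1 was not tested.

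Of 10 macrophage markers 9 were negative (median -0.18, and 0.23 without WT 1), led in level by *Lyz2* and *C1qa*. All 10 adipocyte markers were positive (median 0.78, and -0.15 without Npr1+/- 1), with *Fabp4* between 704 and 3636 CPM in WT and between 1634 and 5797 CPM in Npr1+/-, and *Cfd* between 166 and 1644 CPM against 675 and 3970 CPM, so that WT 1 and Npr1+/- 1 were high in both groups. Few genes were tested from the lists for perineurium (2, median -0.14), mesothelium (2, median 0.78), epithelium (3, median 0.40) and cartilage (3, median -0.36). In perineurium *Slc2a1* was between 41.4 and 73.7 CPM and *Cldn1* at most 4.38 CPM. The 2 mesothelium genes went in opposite directions. *Krt18* (3.42 to 10.8 CPM) was at -0.56 and *Lrrn4* (at most 4.35 CPM) at 2.12 on the log2 scale. *Cdh1* and *Cldn4* of epithelium were at most 1.85 and 0.890 CPM. *Acan* and *Col11a2* of cartilage were at most 24.1 and 10.4 CPM.

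**Figure D5:**
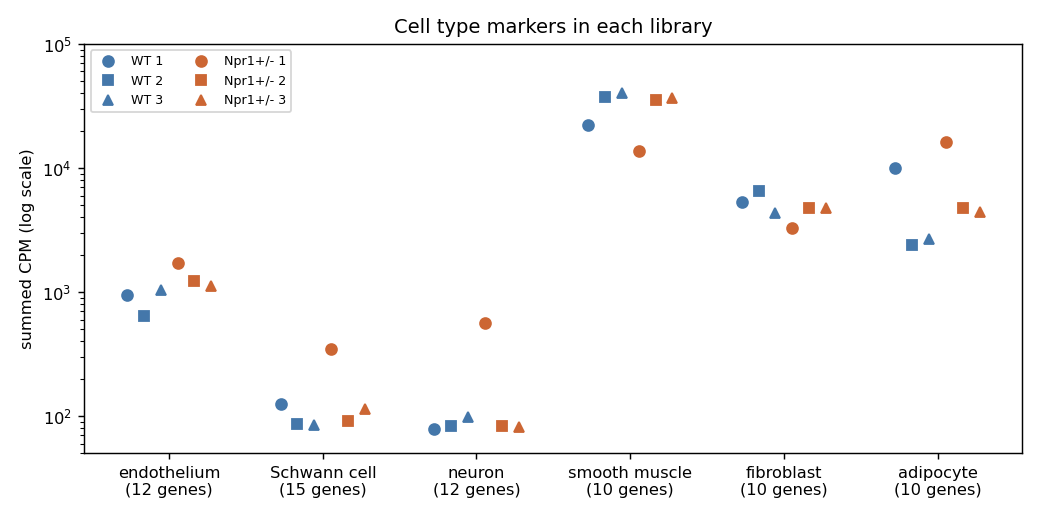
Summed CPM of the marker genes of cell types of the aorta and its surroundings (vertical axis, log scale) in the 6 libraries, with points as libraries. Npr1+/- 1 lies apart for neuronal markers (559 CPM) and Schwann cell markers (344 CPM), and the 3 Npr1+/- sums of endothelium (1119 to 1716 CPM) lie above those of WT (640 to 1039 CPM).

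The genes whose pattern over the 6 libraries was most like that of *Dhh* (Pearson r of log2 CPM, a description) were *Hyal2*, a hyaluronidase (r 0.992), *Fzd3*, a Wnt receptor (0.990), *Arhgap8* (0.989), *Atp2c1*, a calcium pump of the Golgi (0.979), and *Afap1l2* (0.977), and 29 genes were above 0.95. Each point is a library, so the r values share the depth and the genotype of the libraries. *Dhh* was at -0.60 with *Gli2*, -0.44 with *Gli3*, -0.39 with *Hhip*, -0.35 with *Smo*, -0.25 with *Gli1*, -0.19 with *Ptch1* and 0.08 with *Ihh*. Most like *Gli1* were *Ddx52* (0.994), *Traip* (0.992), *Rps4x* (0.992), *Hcfc1r1* (0.991) and *Fam98b* (0.991), with 138 genes above 0.95. Among members, *Gli1* was at 0.86 with *Gli3*, 0.82 with *Gli2*, 0.81 with *Smo*, 0.67 with *Hhip* and 0.54 with *Ihh*, but at -0.46 with *Ptch1*.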

How the data were processed

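Aortic RNA of 6 libraries, 3 WT and 3 Npr1+/-, was compared by genotype as the labels give it. The authors deposited estimated counts (RSEM, not whole numbers) and FPKM per gene, and the submitters' processing notes name Bowtie2, RSEM, build mm10 and DESeq2 1.4.5. The gene set release is not given in the sources used here. The table's knockdown columns were taken as the Npr1+/- libraries by their numbers, and 4 columns holding group means were not used.

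Estimated counts were rounded and tested with edgeR 4.0.16 in R 4.3.3: TMM scaling, genes kept by filterByExpr with a minimum count of 10 (13938 of 18191), and the quasi-likelihood test with Benjamini-Hochberg adjustment. CPM are TMM-scaled, and SE is the absolute log2 fold change divided by the root of F. Genes were called at an adjusted p below 0.05 when the log2 fold change was also 0.5 or more in size. DESeq2 1.42.0, limma 3.58.1 on log2(FPKM + 0.1), other scaling and filters, a replicate block and each library left out were alternatives. Steps were tested on simulated data.

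The p-values weigh the group difference against the variation between these libraries. The labels do not say that libraries came from separate animals, so the p-values may not extend to animals. Deviations from the group means had r of 0.64, 0.39 and 0.24 for libraries of the same number, and -0.58 to 0.44 for different numbers. Libraries numbered 2 and 3 were not more alike within a number than across. The block is given where it changed a value. Named genes are the members and *Npr1*, up to 4 genes per pathway list with an unadjusted p under 0.05 (otherwise the 2 smallest), the 2 most abundant per marker list, and the 5 most alike to *Dhh* and *Gli1*; *Rhebl1*, *Kmt2d*, *Lmbr1l* and *Arhgap9* are neighbours or overlaps. The members and lists were chosen with earlier results of these data known. Depth limits genes under 3 counts. Promoters are from RefSeq, GRCm38.p6, and gene positions from GENCODE.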

Additional observations from a re-analysis of the deposited data

How the results depend on the processing

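The log2 fold change of *Dhh* lay between 0.94 and 1.49 under every alternative run, without a test. With DESeq2 in place of edgeR, 15 genes were called (14 higher and 1 lower), against 0 in edgeR. With each library left out in turn no gene was called. In the alternative added after the data were seen, without both libraries numbered 1, 1 gene was called, *Gm14434*, higher (1 higher), *Gli1* was at 0.080, *Gli3* at 0.035, and list medians were 0.31 (Schwann cell), 0.17 (neuron) and -0.54 (mesothelium). *Ptch1* was at -0.42 and *Gli2* at -0.53 in that alternative. Leaving out one library, *Hhip* ranged from -1.20 to -0.22, *Gli1* from -0.28 to 0.12 and *Ihh* from -0.41 to 0.26, turning positive without WT 3 (0.26) and without Npr1+/- 1 (0.10). List medians ranged from -0.53 to 0.46 (perineurium), -0.15 to 1.85 (adipocyte), 0.16 to 1.23 (mesothelium), -0.55 to -0.015 (cartilage), -0.0028 to 1.61 (Schwann cell), 0.32 to 3.36 (neuron), 0.21 to 0.51 (epithelium), 0.27 to 0.82 (endothelium), -0.46 to 0.052 (smooth muscle), -0.44 to 0.23 (macrophage), -0.42 to -0.011 (fibroblast) and -0.28 to 0.063 (other targets). The low ends for Schwann cell and neuronal markers came without Npr1+/- 1 and the high ends without Npr1+/- 2. The replicate block kept 0 genes called, with *Hhip* at -0.67 and *Gli2* at -0.58, and changed no call. The cause of these shifts was not tested. With 3 libraries per genotype, differences smaller than the intervals given were not detectable.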
